A study of Mus musculus with 15 samples.

Results

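The comparison set RAS-OFF leukemias taken 72 h after doxycycline was started against RAS-ON leukemias at 0 h. It used 7 of the 15 arrays of the series, chosen by their titles: 2 RAS-OFF arrays at 72 h and 5 RAS-ON arrays. The leukemia carries the genotype NRASG12V/Mll-AF9, that is, an oncogenic NRAS transgene under control of doxycycline, which turns it off, and the Mll-AF9 fusion gene, and both groups share it. SCID/Beige mice, a strain with severe defects of lymphocytes and natural killer cells, received the cells by tail vein and were aged for 20 days, to white cell counts over 100000 per microlitre. These hosts keep their own myeloid cells, red cell precursors and stroma. RNA came from acute myeloid leukemia (AML) cells extracted from the spleens. The RAS-ON mice received vehicle. The 72 h mice received doxycycline as an injection into the peritoneum at time 0 and in drinking water until sacrifice. A group given vehicle for 72 h is not among the samples used here, so loss of NRAS, doxycycline itself and 72 h of further disease cannot be told apart. The transgene's promoter and the animals' ages at transplant are not stated in the labels. Replicates are not stated to be separate animals, so the tests weigh differences only against the spread of these arrays, part or all of which may be technical.

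RAS proteins are switches at the cell membrane that pass signals through RAF and MEK kinases to ERK, which turns on immediate early genes, ETS factors and its own inhibitors. Oncogenic NRAS stays in the signalling state and is a recurrent partner of MLL fusions in AML, where the fusion protein holds HOXA genes and other self-renewal genes active. Granulocyte precursors first make the proteases of azurophil granules and only later the contents of specific and gelatinase granules.

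Both 72 h arrays were close to each other. The SD of their log2 difference over all genes was 0.156, and 2 genes differed between them by over 1 log2 unit. The 5 RAS-ON arrays fell into sets, arrays 1 to 3 and arrays 4 and 5. The SD was 0.166 to 0.219 within the first set, 0.169 in the second and 0.236 to 0.302 between them. Median intensities on the 15 arrays were 149.99 to 156.53. RNA quality was read from Gapdh control probe sets, whose 3-prime minus 5-prime difference was 0.099 and 0.182 at 72 h and 0.183 to 0.355 in RAS-ON arrays on the log2 scale. Defining genes of the labelled tissue were detected at RAS-ON mean log2 intensities of 13.08 for the leukocyte gene Ptprc, 13.90 for the granulocyte gene Mpo, 11.57 for the myeloid factor gene Spi1 and 9.99 for the integrin gene Itgam. In these bulk samples, fewer cells of a type and less RNA per cell cannot be told apart.

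At 72 h, 5779 of 18193 genes (31.8%) were called, meaning that the difference from RAS-ON had an adjusted p below 0.05 in limma. Of all genes, 2442 (13.4%) were higher and 3337 (18.3%) lower, and the median log2 change of all genes was -0.051. A change of at least 1 log2 unit, a doubling or halving of intensity, was found in 480 called genes upward (2.64%) and 283 downward (1.56%). Without 72 h replicate 1 the calls were 1601 higher and 1835 lower, and without replicate 2 the lower calls were 2169. The 72 h pair exceeded the whole RAS-ON range in 17.2% of genes and fell short of it in 26%. Calls without overlap of the groups numbered 2374 upward (13%) and 3248 downward (17.9%). The counts of gene lists below are read against these shares.

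Nras, the gene whose oncogenic form doxycycline turns off, had log2 intensities of 10.72, 10.90, 10.86, 11.02 and 11.19 in the RAS-ON arrays and 10.58 and 10.67 at 72 h. Both 72 h arrays lay below the lowest RAS-ON array, by a small margin. The log2 change was -0.31 ± 0.13 (SE; adjusted p = 0.0857, limma), so Nras was not called. Leaving out RAS-ON replicate 1 made it a call (adjusted p = 0.0482). So did using arrays 4 and 5 as RAS-ON (0.0178), whereas using arrays 1 to 3 did not (0.237). The labels do not say whether these mouse probe sets read the transgene.

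The 3 largest falls without overlap were in Cdh17, Gem and Cdh1. Cdh17, a cadherin adhesion gene, had log2 intensities of 10.26, 10.19, 10.09, 10.69 and 10.85 in the RAS-ON arrays and 6.41 and 6.40 at 72 h. It fell by 4.01 ± 0.18 (SE) on the log2 scale, to an intensity 16.1-fold lower (adjusted p = 2.25e-09, limma). Gem encodes a small GTPase that is induced by mitogens. Its log2 intensities were 10.25, 10.18, 10.55, 9.70 and 10.97 in the RAS-ON arrays and 6.75 and 6.41 at 72 h, a fall of 3.75 ± 0.22 (SE). Cdh1, the gene of E-cadherin, lay at 8.86, 8.96, 7.91, 9.36 and 9.04 in the RAS-ON arrays and 5.71 and 5.51 at 72 h on the log2 scale and fell by 3.21 ± 0.30 (SE). For all 3 genes, each 72 h array was far below the lowest RAS-ON array, and Cdh1 varied most of the 3 among RAS-ON arrays. The next 9 falls ran from 2.81 to 2.38 log2 units. They included Penk, the precursor of enkephalins (fall of 2.76 ± 0.21, SE), the chemokine gene Ccl9 (2.54 ± 0.18, SE), the arginine-degrading enzyme gene Arg1 (2.47 ± 0.36, SE) and the protease gene Ctsg. Sgip1, Tctex1d1, Dmkn, Rnase2a and Bex6 made up the rest.

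The largest rise was in Hbb-y, an embryonic beta-like globin gene. Its log2 intensities were 9.15, 9.82, 10.17, 10.30 and 10.31 in the RAS-ON arrays and 13.82 and 13.65 at 72 h. The rise was 3.78 ± 0.23 (SE) log2 units (13.8-fold, adjusted p = 3.41e-08, limma), and all 3 of its probe sets were called higher. Il1bos, an opposite-strand transcript of the interleukin-1 beta locus, lay at 4.57, 4.98, 4.49, 4.54 and 4.97 in the RAS-ON arrays and 8.54 and 8.17 at 72 h on the log2 scale, a rise of 3.65 ± 0.18 (SE). Whether its probe set reads 1 strand only is not stated. Both genes lay far above every RAS-ON array in both 72 h arrays. The other 10 rises ran from 2.79 to 2.32 log2 units. Epb42 and Car1, which encode a membrane protein and a carbonic anhydrase of red cells, rose by 2.63 ± 0.17 and 2.43 ± 0.15 (SE). Mmp8, the neutrophil collagenase, rose by 2.40 ± 0.12 (SE), and Chac2, which degrades glutathione, by 2.32 ± 0.25 (SE). Prokr1, a prokineticin receptor with 1 of its 2 probe sets called, Slc6a20a, an amino acid transporter, Marchf3, a ubiquitin ligase, Ninl, a centrosome gene, Sowaha and Paqr9 completed the 12.

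**Figure D1:**
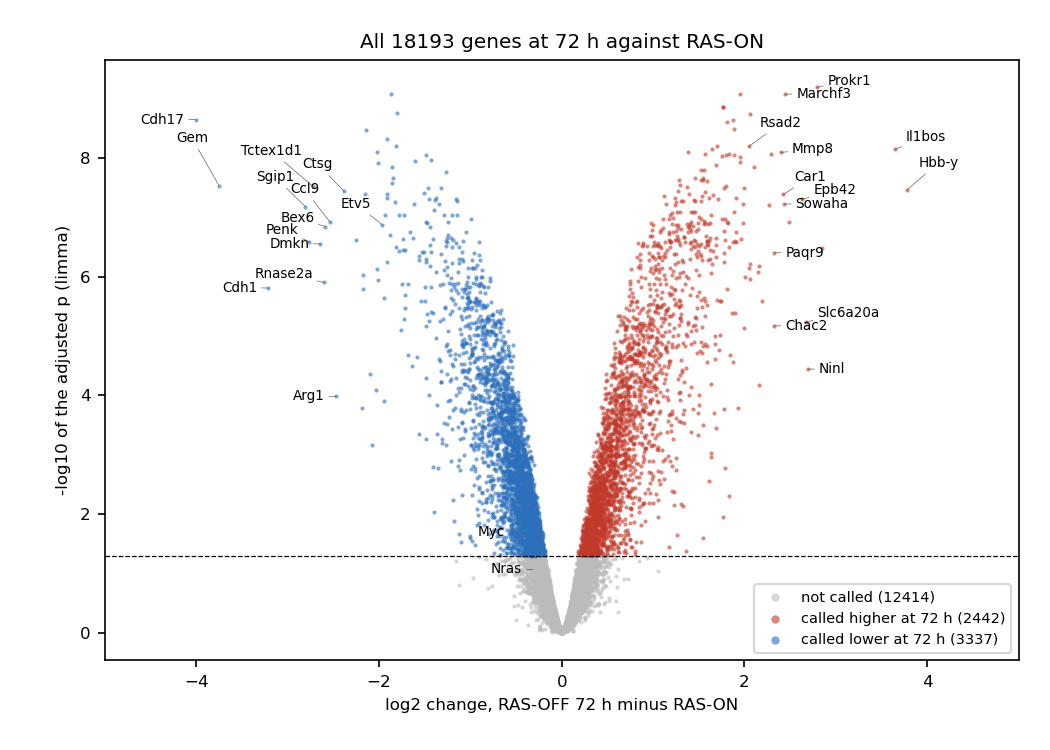
Each point is 1 of 18193 genes, with its log2 change at 72 h against RAS-ON on the x axis and -log10 of the limma adjusted p on the y axis (dashed line: 0.05). The 2442 genes called higher are red, the 3337 called lower are blue, and labels mark the 24 largest changes without overlap, from Cdh17 at -4.01 to Hbb-y at 3.78, with Etv5, Myc, Rsad2 and Nras.

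The genes that carry the signal from RAS to ERK were called in both directions. Of 19 measured genes, 3 rose, 4 fell and 12 were not called, with a median log2 change of 0.05 against -0.051 for all genes. Rasa3, a GTPase-activating protein that switches RAS off, fell by 0.51 ± 0.10 (SE) on the log2 scale, and Rasa2, of the same kind, by 0.31 ± 0.10 (SE). The RAS-related gene Rras fell by 0.29 ± 0.10 (SE). Map2k1, which encodes the kinase MEK1, fell by 0.41 ± 0.08 (SE). Braf, a RAF kinase gene, rose by 0.46 ± 0.09 (SE). The exchange factors Sos1 and Sos2, which load RAS with GTP, rose by 0.62 ± 0.22 and 0.47 ± 0.14 (SE) with adjusted p of 0.0433 and 0.0234 in limma. The 72 h replicate 2 value of Sos2 was level with the highest RAS-ON array. Of the 5 Sos1 probe sets, 2 were called lower when all were tested, and their changes ran from -0.33 to 0.62. Rasa2 lost its call without 72 h replicate 1 or 2, when arrays 1 to 3 made up RAS-ON, with the mean of probe sets or with only the compared groups fitted (adjusted p = 0.0528 to 0.17). Rras lost its call without 72 h replicate 1 or 2, when arrays 4 and 5 made up RAS-ON or with only the compared groups fitted (adjusted p = 0.0599 to 0.182). Sos1 lost its call without 72 h replicate 1 or 2, without RAS-ON replicate 1 or 5, with the mean of probe sets or with only the compared groups fitted (adjusted p = 0.0599 to 0.754). Sos2 lost its call without 72 h replicate 1, when arrays 4 and 5 made up RAS-ON or with only the compared groups fitted (adjusted p = 0.0531 to 0.399).

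Genes that ERK signalling turns on were mostly lower. Of 17 measured feedback and output genes, 9 fell, 3 rose and 5 were not called, and the median log2 change was -0.45. Etv5, an ETS factor induced by ERK, had log2 intensities of 9.66, 10.04, 9.92, 9.52 and 9.67 in the RAS-ON arrays and 7.88 and 7.72 at 72 h, a fall of 1.97 ± 0.14 (SE; adjusted p = 1.33e-07, limma). Dusp6, a phosphatase that switches ERK off, lay at 11.91, 12.25, 12.07, 11.61 and 11.79 in the RAS-ON arrays and 10.92 and 10.86 at 72 h on the log2 scale and fell by 1.04 ± 0.14 (SE). Ccnd1, the gene of cyclin D1, lay at 11.98, 12.24, 12.19, 11.25 and 11.51 in the RAS-ON arrays and 10.26 and 10.13 at 72 h and fell by 1.64 ± 0.21 (SE) log2 units. For these 3 genes every 72 h array was below every RAS-ON array. The receptor gene Epha2 fell by 1.36 ± 0.28 (SE). Among inhibitors of the pathway, Spred2 fell by 0.81 ± 0.11, Spred1 by 0.64 ± 0.13 and Dusp5 by 0.66 ± 0.10 (SE). Spry2, Spry4, Spred3 and Dusp4, inhibitors of the same kind, had log2 changes of 0.03, -0.27, -0.20 and 0.08 and were not called. Spred1 lost its call without 72 h replicate 2 (adjusted p = 0.0558). Spry2 was called with the mean of probe sets (log2 change -0.38, adjusted p = 0.00316). Spry4 was called when arrays 1 to 3 made up RAS-ON or with the mean of probe sets (log2 change -0.36 and -0.40, adjusted p = 0.0274 and 0.000465). Spred3 was called without 72 h replicate 2 (log2 change -0.36, adjusted p = 0.0403).

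The ETS family itself did not move as 1 group. Etv4 and Ets2 fell by 0.45 ± 0.09 and 0.61 ± 0.09 (SE) log2 units, while Ets1 rose by 0.87 ± 0.11 (SE). Spry1, an inhibitor of receptor signalling, and Phlda1 rose by 0.27 ± 0.08 and 0.45 ± 0.16 (SE). With either 72 h array left out, Ets1 was the 1 of the 3 rises that was called. Etv4 lost its call without 72 h replicate 1 (adjusted p = 0.0566). Spry1 lost its call without 72 h replicate 1 or 2, when arrays 4 and 5 made up RAS-ON or with only the compared groups fitted (adjusted p = 0.0553 to 0.166). Phlda1 lost its call without 72 h replicate 1 or 2, without RAS-ON replicate 3, 4 or 5, when arrays 1 to 3 made up RAS-ON or with only the compared groups fitted (adjusted p = 0.0548 to 0.282).

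Immediate early genes, the first to be transcribed after a growth signal, were lower in 13 of 24 cases and higher in 1 at 72 h, with a median log2 change of -0.42. Fos, which encodes a subunit of the AP-1 factor, had log2 intensities of 10.59, 10.28, 11.09, 10.66 and 10.66 in the RAS-ON arrays and 8.82 and 8.86 at 72 h and fell by 1.81 ± 0.14 (SE). Egr1, a zinc-finger factor induced through ERK, lay at 9.81, 9.51, 10.15, 10.35 and 10.33 in the RAS-ON arrays and 8.36 and 8.28 at 72 h on the log2 scale and fell by 1.71 ± 0.17 (SE). Klf4, a factor of monocyte maturation, lay at 11.29, 11.24, 11.15, 11.87 and 11.89 in the RAS-ON arrays and 9.60 and 9.49 at 72 h and fell by 1.94 ± 0.19 (SE) log2 units. In each of these genes both 72 h arrays lay below all RAS-ON arrays. Jun, the partner of Fos, fell by 1.48 ± 0.20 (SE), Fosl1 by 0.99 ± 0.14 and Junb by 0.97 ± 0.18 (SE). Zfp36, whose product destabilises mRNAs, fell by 0.98 ± 0.23 (SE), and Srf, the factor that serves many of these genes, by 0.58 ± 0.12 (SE). Ier5 rose by 0.33 ± 0.11 (SE). The 10 genes not called included Fosb (-0.02), Egr3 (-0.16) and Atf3 (-0.24), as log2 changes. Zfp36 and Srf lost their calls without 72 h replicate 1 (adjusted p = 0.0804 and 0.0898). Ier5 lost its call without 72 h replicate 1 or 2, without RAS-ON replicate 1 or with only the compared groups fitted (adjusted p = 0.0505 to 0.276). Egr3 was called with the mean of probe sets (log2 change -0.95, adjusted p = 0.0067). Atf3 was called when arrays 1 to 3 made up RAS-ON (log2 change -0.37, adjusted p = 0.0177).

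**Figure D2:**
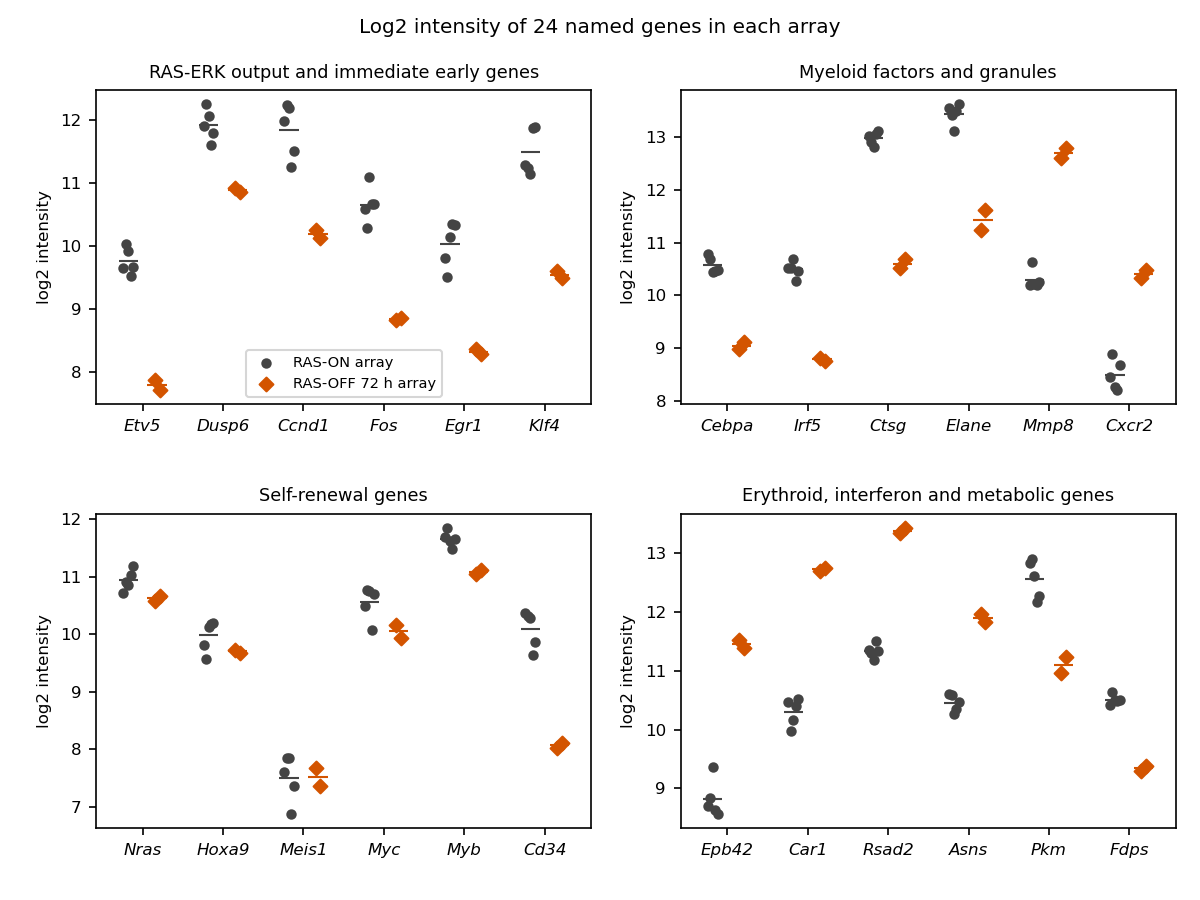
Log2 intensity (y axis) of 24 named genes in each of the 5 RAS-ON arrays (dark grey circles) and both RAS-OFF 72 h arrays (orange diamonds), with short lines at the group means. The groups do not overlap for Etv5, Dusp6, Ccnd1, Fos, Egr1 and Klf4, and they overlap for Hoxa9, Meis1 and Myc.

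The regulators of the step from G1 into S phase went both ways. Of 16 genes, 7 fell and 4 rose at 72 h. Cyclin D1, cyclin D2 (Ccnd2, fall of 0.98 ± 0.15, SE) and the kinases that they activate, Cdk6 (0.86 ± 0.12, SE) and Cdk4 (0.50 ± 0.10, SE), were all lower on the log2 scale. Cdkn2a, the gene of the inhibitors p16 and p19ARF, had log2 intensities of 9.45, 10.11, 9.67, 9.48 and 9.21 in the RAS-ON arrays and 7.61 and 7.20 at 72 h, a fall of 2.18 ± 0.19 (SE). Cdkn1b, the gene of the inhibitor p27, lay at 10.51, 10.42, 10.71, 10.73 and 10.59 in the RAS-ON arrays and 11.72 and 11.70 at 72 h on the log2 scale, a rise of 1.12 ± 0.10 (SE). Neither gene had a 72 h array inside the RAS-ON range. Cdkn1a, the gene of the inhibitor p21, fell by 1.11 ± 0.20 (SE). Rb1, the target of these kinases, rose by 0.98 ± 0.10 (SE), while its relative Rbl2 fell by 0.33 ± 0.09 (SE). The inhibitor genes Cdkn2c and Cdkn2d rose by 0.37 ± 0.09 and 0.40 ± 0.10 (SE). The list's median change of 0.01 turned negative under 4 of 17 alternative settings. Rbl2, Cdkn2c and Cdkn2d lost their calls without 72 h replicate 2 (adjusted p = 0.106, 0.081 and 0.104).

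In the MYC network, Myc fell and the antagonists Mxd1, Mxd3 and Mxi1 rose. Myc had log2 intensities of 10.49, 10.77, 10.75, 10.07 and 10.70 in the RAS-ON arrays and 10.16 and 9.94 at 72 h, and RAS-ON replicate 4 lay between the 72 h arrays. The fall was 0.50 ± 0.15 (SE) log2 units (adjusted p = 0.0198, limma). Mxd1, which competes with MYC for its partner MAX, lay at 10.21, 10.29, 9.85, 9.79 and 10.08 in the RAS-ON arrays and 11.55 and 11.71 at 72 h on the log2 scale and rose by 1.58 ± 0.12 (SE), with no overlap. The antagonists Mxd3 and Mxi1 rose by 0.66 ± 0.09 and 0.51 ± 0.09 (SE), and Max had a log2 change of 0.08. Mycn and the repressor gene Mnt fell by 0.21 ± 0.07 and 0.31 ± 0.08 (SE). Of these 3 falls, that of Myc included, 1 was called without 72 h replicate 1 and 0 without replicate 2. Myc lost its call without 72 h replicate 2, when arrays 4 and 5 made up RAS-ON or with only the compared groups fitted (adjusted p = 0.0647 to 0.192). Mycn lost its call without 72 h replicate 1 or 2, when arrays 4 and 5 made up RAS-ON, with the mean of probe sets or with only the compared groups fitted (adjusted p = 0.0573 to 0.745). Mnt lost its call without 72 h replicate 1 or 2 or with the mean of probe sets (adjusted p = 0.0598 to 0.0799).

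The HOXA genes and other targets of MLL fusions showed no common direction at 72 h. Of 21 genes, 4 rose, 5 fell and 12 were not called, near the shares of all genes. Hoxa9, the homeobox gene most often tied to MLL leukemia, had log2 intensities of 9.81, 9.57, 10.13, 10.18 and 10.20 in the RAS-ON arrays and 9.72 and 9.68 at 72 h. Its change was -0.28 ± 0.15 (SE; adjusted p = 0.175, limma), and RAS-ON replicate 2 lay below both 72 h arrays. Meis1, the cofactor of Hoxa9, lay at 7.61, 7.84, 7.85, 6.88 and 7.36 in the RAS-ON arrays and 7.67 and 7.37 at 72 h on the log2 scale, with a change of 0.01 ± 0.20 (SE). The 72 h arrays lay inside the RAS-ON range, and the change was -0.25 against RAS-ON arrays 1 to 3 and 0.40 against arrays 4 and 5. Kmt2a, the mouse MLL gene, changed by 0.01 ± 0.17 (SE), again inside the RAS-ON range. Hoxa9 was called without RAS-ON replicate 2 or when arrays 4 and 5 made up RAS-ON (log2 change -0.38 and -0.49, adjusted p = 0.028 and 0.00429).

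Within the same list single genes changed by over 1 log2 unit. Mef2c, a factor downstream of MLL fusions, had log2 intensities of 11.90, 11.80, 11.59, 11.71 and 11.71 in the RAS-ON arrays and 10.20 and 10.03 at 72 h and fell by 1.62 ± 0.11 (SE). Mllt3, the mouse AF9 gene, lay at 8.69, 8.69, 8.84, 9.26 and 9.33 in the RAS-ON arrays and 10.81 and 10.57 at 72 h on the log2 scale and rose by 1.73 ± 0.17 (SE), with all 3 probe sets called higher. RAS-ON arrays 4 and 5 were above arrays 1 to 3 for Mllt3, and both 72 h arrays were above them all. Whether these probe sets read the fusion transcript is not given in the labels. Pbx3, a HOX cofactor, and Mecom, a stem cell factor, rose by 1.22 ± 0.14 and 1.21 ± 0.25 (SE). Cdk6, given above, and Men1 were among the 5 falls. Inside the HOXA cluster, Hoxa7 and Hoxa5 fell by 0.78 ± 0.07 and 0.34 ± 0.09 (SE) and Hoxa10 rose by 0.38 ± 0.12 (SE). Men1 lost its call without 72 h replicate 1 or 2, without RAS-ON replicate 1, 2 or 3, when arrays 4 and 5 made up RAS-ON, with the mean of probe sets or with only the compared groups fitted (adjusted p = 0.0611 to 0.43). Hoxa5 lost its call without 72 h replicate 1 (adjusted p = 0.177). Hoxa10 lost its call without 72 h replicate 1 or 2, when arrays 4 and 5 made up RAS-ON or with the mean of probe sets (adjusted p = 0.0685 to 0.222).

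Stem and progenitor genes also went both ways, with 6 higher and 6 lower of 21. Cd34, a surface marker of progenitors, had log2 intensities of 10.37, 10.32, 10.28, 9.63 and 9.86 in the RAS-ON arrays and 8.03 and 8.11 at 72 h, a fall of 2.02 ± 0.18 (SE; 4.05-fold). Myb, a factor that blood progenitors need, lay at 11.69, 11.84, 11.62, 11.48 and 11.66 in the RAS-ON arrays and 11.05 and 11.12 at 72 h on the log2 scale and fell by 0.57 ± 0.10 (SE). Both genes were lower in both 72 h arrays than in any RAS-ON array. Kit, the receptor of stem cell factor, lay at 9.79, 9.48, 9.12, 9.79 and 9.89 in the RAS-ON arrays and 9.93 and 9.98 at 72 h. Both 72 h arrays were just above the RAS-ON range, but the log2 change of 0.34 ± 0.16 (SE; adjusted p = 0.112, limma) was not called. Tal1 and Gfi1b, factors shared by early progenitors and the erythroid and megakaryocyte lines, rose by 1.31 ± 0.16 and 1.28 ± 0.12 (SE). Etv6 and Gata2 fell by 0.90 ± 0.12 and 0.47 ± 0.09 (SE). Flt3, a receptor of early progenitors, rose by 0.60 ± 0.18 (SE). Flt3 lost its call without 72 h replicate 1 or 2, when arrays 4 and 5 made up RAS-ON or with only the compared groups fitted (adjusted p = 0.0616 to 0.145). Kit was called without RAS-ON replicate 5 or when arrays 1 to 3 made up RAS-ON (log2 change 0.41 and 0.49, adjusted p = 0.0495 and 0.0141).

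Of 17 transcription factors of the myeloid line, 8 fell, 1 rose and 8 were not called at 72 h, and the median log2 change was -0.27. Cebpa, which commits progenitors to the granulocyte line, had log2 intensities of 10.79, 10.69, 10.45, 10.46 and 10.48 in the RAS-ON arrays and 8.98 and 9.11 at 72 h, a fall of 1.53 ± 0.12 (SE; adjusted p = 3.82e-07, limma). Spi1, which encodes PU.1 and directs both granulocyte and monocyte fates, lay at 11.61, 11.70, 11.72, 11.33 and 11.46 in the RAS-ON arrays and 10.27 and 10.59 at 72 h on the log2 scale and fell by 1.14 ± 0.19 (SE). Irf5, an interferon regulatory factor of macrophages, lay at 10.52, 10.52, 10.69, 10.28 and 10.47 in the RAS-ON arrays and 8.82 and 8.75 at 72 h and fell by 1.71 ± 0.14 (SE) log2 units. Each 72 h array was well below the lowest RAS-ON array for these 3 genes. Cebpb, a factor of emergency granulopoiesis, fell by 1.56 ± 0.13 (SE), Gfi1, a repressor needed by neutrophils, by 1.28 ± 0.13 (SE), and Irf8, which directs monocyte fate, by 0.83 ± 0.20 (SE). Nfe2, a factor of megakaryocytes and red cells, rose by 0.94 ± 0.10 (SE). Cebpd had a log2 change of 0.10. Irf8 lost its call without 72 h replicate 1 or when arrays 4 and 5 made up RAS-ON (adjusted p = 0.066 and 0.0546).

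Every measured gene of the azurophil granule list fell, 11 of 11 with no overlap, against 18.3% of all genes called lower. The median log2 change was -1.46, with medians of -1.44 and -1.48 in the single 72 h arrays. Elane, the gene of neutrophil elastase, had log2 intensities of 13.54, 13.42, 13.12, 13.50 and 13.62 in the RAS-ON arrays and 11.24 and 11.62 at 72 h, a fall of 2.01 ± 0.18 (SE; 4.04-fold). Ctsg, the gene of cathepsin G, lay at 13.01, 12.91, 12.81, 13.05 and 13.12 in the RAS-ON arrays and 10.51 and 10.68 at 72 h on the log2 scale and fell by 2.38 ± 0.15 (SE). Mpo, the gene of myeloperoxidase, lay at 13.97, 13.88, 13.62, 14.00 and 14.05 in the RAS-ON arrays and 12.57 and 12.81 at 72 h and fell by 1.21 ± 0.12 (SE) log2 units. The groups did not overlap for any of the 3 genes. Prtn3, the gene of proteinase 3, fell by 1.94 ± 0.13 (SE), the cystatin gene Cst7 by 2.15 ± 0.13 (SE), and Ctsc, which activates these proteases, by 1.46 ± 0.09 (SE). The smallest falls were in Serpinb1a, an inhibitor of the proteases (0.46 ± 0.15, SE), and Srgn, which packs them (0.49 ± 0.08, SE). Without 72 h replicate 1, 8 of the 11 falls were called. Serpinb1a lost its call without 72 h replicate 1 or 2, without RAS-ON replicate 2, 4 or 5 or when arrays 1 to 3 made up RAS-ON (adjusted p = 0.0521 to 0.239).

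Genes of later neutrophil granules and receptors went the opposite way, with 11 of 20 higher, 1 lower and a median log2 change of 0.51. Mmp8 had log2 intensities of 10.20, 10.63, 10.21, 10.19 and 10.25 in the RAS-ON arrays and 12.60 and 12.79 at 72 h, a rise of 2.40 ± 0.12 (SE; 5.28-fold). Cxcr2, the chemokine receptor by which neutrophils leave marrow, lay at 8.46, 8.89, 8.26, 8.21 and 8.67 in the RAS-ON arrays and 10.33 and 10.48 at 72 h on the log2 scale and rose by 1.91 ± 0.15 (SE). Csf3r, the receptor of granulocyte colony-stimulating factor, lay at 10.53, 10.70, 10.70, 10.59 and 10.30 in the RAS-ON arrays and 11.34 and 11.49 at 72 h and rose by 0.85 ± 0.10 (SE) log2 units. The groups did not overlap for any of these. Olfm4 and Mmp9, genes of specific and gelatinase granules, rose by 1.63 ± 0.23 and 1.29 ± 0.17 (SE). Fpr2, a receptor for bacterial peptides, rose by 1.12 ± 0.16 (SE), Padi4, which modifies histones in neutrophils, by 1.01 ± 0.14 (SE), and Il1b by 1.27 ± 0.17 (SE). Ltf and Lcn2, further specific granule genes, rose by 0.64 ± 0.10 and 0.38 ± 0.08 (SE). The chemokine gene Cxcl2 fell by 0.79 ± 0.13 (SE). S100a8, S100a9, Camp and Ngp, abundant in maturing neutrophils, had log2 changes of 0.08, 0.12, 0.34 and 0.13 and were not called. Itgam changed by 0.06, with RAS-ON arrays spread from 9.49 to 10.81 around both 72 h arrays. Camp was called without RAS-ON replicate 3, 4 or 5 or when arrays 1 to 3 made up RAS-ON (log2 change 0.25 to 0.48, adjusted p = 0.00256 to 0.0497).

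Monocyte and macrophage genes were lower, 13 of 22, with 1 higher and a median log2 change of -0.44. Vcan, a matrix proteoglycan gene of monocytes, had log2 intensities of 8.70, 8.89, 8.93, 9.17 and 9.99 in the RAS-ON arrays and 7.28 and 7.10 at 72 h, a fall of 1.95 ± 0.29 (SE). F13a1, a coagulation factor gene of monocytes, lay at 12.84, 12.97, 13.04, 12.79 and 13.02 in the RAS-ON arrays and 10.97 and 11.06 at 72 h on the log2 scale and fell by 1.92 ± 0.12 (SE). Both genes had 72 h values below every RAS-ON value. The chemokine receptors Cx3cr1 and Ccr2 fell by 1.41 ± 0.29 and 0.76 ± 0.17 (SE), the scavenger receptor gene Msr1 by 1.49 ± 0.16 (SE), and Cd14, a receptor for bacterial lipopolysaccharide, by 0.97 ± 0.09 (SE). Cd36, a scavenger receptor also found on platelets and erythroid precursors, rose by 0.73 ± 0.14 (SE). Csf1r, the receptor that macrophages need, had a log2 change of -0.24, Lyz2 of 0.04 and Mpeg1 of -0.18, and none was called. Ccr2 lost its call without 72 h replicate 2 (adjusted p = 0.0931). Csf1r was called with the mean of probe sets (log2 change -0.59, adjusted p = 0.00264).

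Of 16 Toll-like receptor and lectin genes, which sense microbes, 5 fell and 2 rose, close to the shares of all genes for the rises. Clec4e and Tlr7 fell by 0.76 ± 0.13 and 0.70 ± 0.10 (SE) log2 units. Tlr13 fell by 0.39 ± 0.13 (SE). Tlr4 rose by 0.47 ± 0.14 (SE), with 1 of its 4 probe sets called and changes of -0.14 to 0.47 across them. Tlr2 and Tlr6 were the other falls and Clec4d the other rise. Tlr13 lost its call without 72 h replicate 1 or 2, without RAS-ON replicate 4, when arrays 1 to 3 made up RAS-ON or with only the compared groups fitted (adjusted p = 0.0536 to 0.264). Tlr4 lost its call without 72 h replicate 1, with the mean of probe sets or with only the compared groups fitted (adjusted p = 0.0577 to 0.61). Tlr2 lost its call without 72 h replicate 1 or 2 (adjusted p = 0.0576 and 0.0862). Tlr6 lost its call without 72 h replicate 1 or 2 or with only the compared groups fitted (adjusted p = 0.051 to 0.106). Clec4d lost its call without 72 h replicate 1 (adjusted p = 0.105).

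Genes of the type I interferon response were divided at 72 h. Of 25, 12 rose, 2 fell and 11 were not called, with a median log2 change of 0.43. Rsad2, the gene of the antiviral protein viperin, had log2 intensities of 11.35, 11.31, 11.19, 11.51 and 11.34 in the RAS-ON arrays and 13.35 and 13.43 at 72 h, a rise of 2.05 ± 0.10 (SE; 4.14-fold, adjusted p = 6.39e-09, limma). Cmpk2, its neighbour in the genome, lay at 8.53, 8.77, 8.10, 7.81 and 8.18 in the RAS-ON arrays and 10.19 and 9.82 at 72 h on the log2 scale and rose by 1.73 ± 0.20 (SE). Isg20, an antiviral exonuclease gene, lay at 10.93, 10.69, 11.02, 11.01 and 10.83 in the RAS-ON arrays and 12.57 and 12.61 at 72 h and rose by 1.69 ± 0.09 (SE) log2 units. The 72 h arrays of these 3 genes were all above the RAS-ON range. Ifit1, which binds viral RNA, rose by 1.11 ± 0.22 (SE), and the RNA sensor gene Ifih1 by 0.80 ± 0.12 (SE). Usp18, a brake on interferon signalling, lay at 8.28, 8.69, 8.59, 7.28 and 7.42 in the RAS-ON arrays and 9.31 and 9.41 at 72 h on the log2 scale, a rise of 1.31 ± 0.33 (SE). RAS-ON arrays 4 and 5 lay well below arrays 1 to 3 for Usp18, and both 72 h arrays above all of them. Usp18 lost its call without 72 h replicate 1 or 2 (adjusted p = 0.0509 and 0.0616).

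Against these rises, Mx1, a GTPase gene against influenza virus, fell by 0.71 ± 0.22 (SE) log2 units. Bst2, which tethers budding viruses, had log2 intensities of 9.26, 9.45, 9.40, 9.29 and 9.05 in the RAS-ON arrays and 8.71 and 8.73 at 72 h and fell by 0.57 ± 0.14 (SE). Oas1a, Oas2 and Oas3, which make a second messenger against viral RNA, had log2 changes of -0.10, 0.14 and 0.11, and Ifit2 and Mx2 of 0.08 and 0.08. None of these 5 was called. The count of rises depended on both 72 h arrays: 6 were called without replicate 1 and 8 without replicate 2. Red pulp macrophage genes were higher in the same arrays, with a mean log2 level of 10.22 at 72 h against 9.57 to 9.89 in RAS-ON arrays, and their part in this list's change was not tested. Mx1 lost its call without 72 h replicate 2, when arrays 4 and 5 made up RAS-ON or with only the compared groups fitted (adjusted p = 0.0617 to 0.227). Bst2 lost its call without 72 h replicate 1 (adjusted p = 0.0509). Oas2 and Oas3 were called when arrays 4 and 5 made up RAS-ON (log2 change 0.45 and 0.42, adjusted p = 0.0101 and 0.0207).

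The promoters of 4 interferon genes are shown because genes with the same motif rose or fell. The interferon-stimulated response element was searched as GAAA, any 2 bases and GAAA again, on both strands of the 300 bases around each gene's start. Sequences are from RefSeq, build GRCm38.p6, 5′ to 3′ on the gene's strand, ending at the base before the start, with matches in capitals. Adjoining capitals are overlapping matches. Rsad2 lies at chr12:26456453-26456612 (minus strand), Ifit1 at chr19:34640745-34640888 (plus strand), Ifit3 at chr19:34583333-34583528 (plus strand) and Bst2 at chr8:71537473-71537642 (minus strand).
Rsad2: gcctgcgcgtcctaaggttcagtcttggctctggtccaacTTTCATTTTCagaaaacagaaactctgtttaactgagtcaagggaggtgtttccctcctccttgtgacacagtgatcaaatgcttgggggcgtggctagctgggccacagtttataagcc
Ifit1: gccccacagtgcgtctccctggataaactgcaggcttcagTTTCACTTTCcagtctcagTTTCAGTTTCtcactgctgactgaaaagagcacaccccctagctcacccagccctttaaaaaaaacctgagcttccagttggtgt
Ifit3: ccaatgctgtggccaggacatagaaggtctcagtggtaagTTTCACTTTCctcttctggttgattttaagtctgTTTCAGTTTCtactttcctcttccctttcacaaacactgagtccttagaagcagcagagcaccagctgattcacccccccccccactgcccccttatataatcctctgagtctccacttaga
Bst2: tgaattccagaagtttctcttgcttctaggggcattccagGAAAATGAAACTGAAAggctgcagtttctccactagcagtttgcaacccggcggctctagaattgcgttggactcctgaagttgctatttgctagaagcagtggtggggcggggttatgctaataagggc

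Ifit1 and Ifit3 each held 2 separate matches, Bst2 held 2 overlapping ones and Rsad2 held 1, whose first base lay 120 bases before the start. Ifit3 had log2 intensities of 6.83, 6.97, 6.89, 7.12 and 6.94 in the RAS-ON arrays and 7.64 and 7.60 at 72 h, a rise of 0.67 ± 0.17 (SE). Bst2, which fell, held the motif too. Of the 25 interferon genes, 18 had a promoter in the table, and 10 of these held the motif: 4 of the 9 called higher, 1 of 1 called lower, and 5 genes not called. Of all 14452 genes with a promoter, 524 (3.63%) held it. A match describes the letters only. Ifit3 lost its call without 72 h replicate 1 (adjusted p = 0.0653).

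Genes of DNA replication and S phase were higher at 72 h, 18 of 29, and 0 were lower. The list's median log2 change was 0.30. Ccne2, the gene of cyclin E2, had log2 intensities of 9.95, 10.16, 9.94, 10.28 and 10.17 in the RAS-ON arrays and 11.18 and 10.99 at 72 h, a rise of 0.98 ± 0.12 (SE). Cdc6, which loads the replicative helicase, lay at 10.97, 10.99, 10.93, 10.73 and 10.54 in the RAS-ON arrays and 11.59 and 11.56 at 72 h on the log2 scale and rose by 0.75 ± 0.11 (SE). Neither gene overlapped between groups. Orc1, a subunit of the origin recognition complex, rose by 0.78 ± 0.08 (SE), Pcna, the polymerase clamp, by 0.42 ± 0.09 (SE), and Rrm2, a subunit of ribonucleotide reductase, by 0.49 ± 0.07 (SE). The helicase genes Mcm4 and Mcm7 rose by 0.32 ± 0.07 and 0.30 ± 0.06 (SE), whereas Mcm2, Mcm3, Mcm5 and Mcm6 had log2 changes of 0.15, -0.12, 0.14 and -0.08 and were not called. Tyms, which makes thymidylate, rose by 0.70 ± 0.23 (SE), with RAS-ON replicate 3 level with 72 h replicate 2. Without 72 h replicate 2 the list had 10 rises in place of 18. Pcna lost its call without 72 h replicate 2 (adjusted p = 0.0519). Tyms lost its call without 72 h replicate 1 or 2, without RAS-ON replicate 1, when arrays 1 to 3 made up RAS-ON or with only the compared groups fitted (adjusted p = 0.0516 to 0.243). Mcm2 was called when arrays 4 and 5 made up RAS-ON (log2 change 0.36, adjusted p = 0.0346).

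Mitosis and spindle genes were higher in 13 of 26 cases and lower in 0, with a median log2 change of 0.27. Mki67, the gene of the proliferation marker Ki-67, had log2 intensities of 13.04, 13.10, 13.25, 12.97 and 13.05 in the RAS-ON arrays and 13.76 and 13.72 at 72 h, a rise of 0.66 ± 0.08 (SE). Cenpf, a kinetochore gene, lay at 10.58, 10.66, 10.78, 10.72 and 11.00 in the RAS-ON arrays and 11.48 and 11.59 at 72 h on the log2 scale and rose by 0.79 ± 0.10 (SE). Both genes lay above the RAS-ON range in each 72 h array. Nusap1, a spindle gene, rose by 0.77 ± 0.08 (SE), the cyclin gene Ccna2 by 0.55 ± 0.08 (SE), and Birc5, the gene of survivin, by 0.46 ± 0.07 (SE). The kinetochore motor gene Cenpe rose by 0.58 ± 0.17 (SE). Cdk1, Plk1, Aurkb and Top2a had log2 changes of 0.22, -0.04, -0.14 and 0.21 and were not called. Erythroid genes, 21 of 23 of which rose, were also higher at 72 h. Their mean log2 level was 12.02 to 12.09 at 72 h and 10.52 to 10.79 in RAS-ON arrays. At 48 and 60 h the erythroid list already had median log2 changes of 1.31 and 1.27. The medians at those times were 0.04 and -0.04 for mitosis genes and 0.15 and 0.05 for replication genes. The part of erythroid cells in the rises at 72 h was not tested. Cenpe lost its call without 72 h replicate 1 or 2 (adjusted p = 0.129 and 0.0615). Cdk1 was called without RAS-ON replicate 5 or when arrays 1 to 3 made up RAS-ON (log2 change 0.26 and 0.28, adjusted p = 0.0307 and 0.0262). Top2a was called without RAS-ON replicate 2, when arrays 4 and 5 made up RAS-ON or with the mean of probe sets (log2 change 0.24 to 0.32, adjusted p = 0.0104 to 0.0408).

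Ribosome biogenesis genes were lower in 14 of 26 cases and higher in 1, with a median log2 change of -0.34. Pes1 and Bop1, partners in the maturation of the large ribosomal subunit, fell by 0.74 ± 0.13 and 0.68 ± 0.14 (SE) log2 units. Pes1 lay at 10.84, 10.81, 10.71, 10.88 and 11.06 in the RAS-ON arrays and 10.22 and 10.03 at 72 h on the log2 scale, without overlap. Fbl, which methylates ribosomal RNA, fell by 0.41 ± 0.09 (SE). Odc1, the first enzyme of polyamine synthesis, rose by 0.63 ± 0.08 (SE). Nop16 fell by 0.67 ± 0.15 (SE). The nucleolar genes Ncl, Npm1 and Nop56 had log2 changes of -0.02, -0.14 and -0.04. The 14 falls came down to 7 without 72 h replicate 1 and 4 without replicate 2. Nop16 lost its call without 72 h replicate 2 (adjusted p = 0.0552).

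Glycolysis genes were mostly lower at 72 h, 12 of 17, with 3 higher and a median log2 change of -0.56. Pkm, the gene of pyruvate kinase, had log2 intensities of 12.83, 12.90, 12.62, 12.17 and 12.27 in the RAS-ON arrays and 10.96 and 11.24 at 72 h, a fall of 1.45 ± 0.21 (SE; 2.74-fold). Tpi1, the gene of triose phosphate isomerase, lay at 12.73, 12.71, 12.61, 12.39 and 12.41 in the RAS-ON arrays and 11.33 and 11.21 at 72 h on the log2 scale and fell by 1.30 ± 0.12 (SE). Both genes were below the RAS-ON range in both 72 h arrays. Phosphofructokinase genes split: the platelet type Pfkp and the liver type Pfkl fell by 1.43 ± 0.12 and 1.00 ± 0.32 (SE), and the muscle type Pfkm rose by 1.05 ± 0.09 (SE). Glucose transporters split too, with Slc2a1 lower by 1.10 ± 0.16 (SE) and Slc2a3 higher by 1.04 ± 0.10 (SE). Slc16a3, which exports lactate, fell by 1.14 ± 0.23 (SE), Ldha, which makes it, by 0.56 ± 0.08 (SE), and Pgk1 by 0.73 ± 0.08 (SE). Hk1, a hexokinase gene, was the third rise, of 0.47 ± 0.16 (SE). Pfkl lost its call without 72 h replicate 1 or 2, without RAS-ON replicate 1, when arrays 4 and 5 made up RAS-ON or with only the compared groups fitted (adjusted p = 0.0518 to 0.253). Hk1 lost its call without 72 h replicate 1 or 2, without RAS-ON replicate 4 or 5, when arrays 1 to 3 made up RAS-ON, with the mean of probe sets or with only the compared groups fitted (adjusted p = 0.0506 to 0.425).

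Of 26 oxidative phosphorylation genes, 5 fell and 1 rose, with a median log2 change of -0.05. Sdhc and Sdhb, subunits of succinate dehydrogenase, fell by 0.78 ± 0.17 and 0.39 ± 0.08 (SE), and the complex I genes Ndufb5 and Ndufb8 fell by 0.45 ± 0.09 and 0.32 ± 0.10 (SE). Uqcrc1, of complex III, was the other fall and Ndufs1, of complex I, the rise. The falls numbered 3 with either 72 h array left out. Ndufb8 lost its call without 72 h replicate 1 or 2, when arrays 1 to 3 made up RAS-ON, with the mean of probe sets or with only the compared groups fitted (adjusted p = 0.0644 to 0.176). Uqcrc1 lost its call without 72 h replicate 1 or 2, without RAS-ON replicate 1, 2 or 5, when arrays 1 to 3 made up RAS-ON, when arrays 4 and 5 made up RAS-ON or with only the compared groups fitted (adjusted p = 0.0575 to 0.28). Ndufs1 lost its call without 72 h replicate 1 or 2 or when arrays 4 and 5 made up RAS-ON (adjusted p = 0.0562 to 0.126).

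Genes of cholesterol synthesis and uptake were lower in 12 of 19 cases and higher in 0, with a median log2 change of -0.45. Fdps, which makes farnesyl diphosphate, had log2 intensities of 10.42, 10.65, 10.50, 10.49 and 10.50 in the RAS-ON arrays and 9.29 and 9.39 at 72 h, a fall of 1.17 ± 0.12 (SE). Cyp51, a demethylase of the sterol branch, lay at 8.26, 8.39, 7.84, 8.12 and 8.21 in the RAS-ON arrays and 7.02 and 6.97 at 72 h on the log2 scale and fell by 1.17 ± 0.15 (SE). The groups did not overlap for either gene. Srebf2, the factor that turns the pathway on, fell by 0.67 ± 0.09 (SE), its retention factor Insig1 by 1.03 ± 0.14 (SE), and Hmgcs1, an early enzyme, by 0.69 ± 0.12 (SE). Sqle, Fdft1 and Idi1 had log2 changes of -0.03, 0.25 and -0.13 and were not called. Fdft1 was called when arrays 4 and 5 made up RAS-ON (log2 change 0.37, adjusted p = 0.0204).

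Targets of ATF4, the factor of the amino acid and stress response, rose in 12 of 28 cases and fell in 4, with a median log2 change of 0.18. Asns, the gene of asparagine synthetase, had log2 intensities of 10.60, 10.59, 10.26, 10.36 and 10.48 in the RAS-ON arrays and 11.97 and 11.83 at 72 h, a rise of 1.44 ± 0.09 (SE; 2.72-fold). Trib3 and Ddit3, stress genes downstream of ATF4, rose by 0.91 ± 0.17 and 1.00 ± 0.11 (SE), and Atf4 itself rose by 0.37 ± 0.09 (SE). Genes of amino acid transport rose as well, Slc6a9 by 1.09 ± 0.21, Slc7a5 by 0.68 ± 0.09 and its partner Slc3a2 by 0.59 ± 0.10 (SE). The 4 falls were in Phgdh, Psat1, Cebpb and Wars. Phgdh, the first enzyme of serine synthesis, lay at 11.36, 11.29, 10.88, 11.39 and 11.39 in the RAS-ON arrays and 10.02 and 10.12 at 72 h on the log2 scale and fell by 1.19 ± 0.19 (SE), and Psat1, the second, fell by 1.08 ± 0.19 (SE). Psph, the third, had a log2 change of -0.12 and was not called. The groups did not overlap for Asns or Phgdh. Atf4 lost its call without 72 h replicate 2 or with the mean of probe sets (adjusted p = 0.0612 and 0.264). Wars lost its call without 72 h replicate 1 (adjusted p = 0.0724).

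The promoters of 3 ATF4 targets that rose are shown with the composite site searched, TGATGNAA, on both strands. They are from RefSeq, GRCm38.p6, on the gene's strand and end at the base before the start. Asns lies at chr6:7693210-7693272 (minus strand), Chac1 at chr2:119351009-119351241 (plus strand) and Aars at chr8:111033690-111033841 (plus strand).
Asns: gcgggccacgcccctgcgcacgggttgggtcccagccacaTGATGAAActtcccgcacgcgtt
Chac1: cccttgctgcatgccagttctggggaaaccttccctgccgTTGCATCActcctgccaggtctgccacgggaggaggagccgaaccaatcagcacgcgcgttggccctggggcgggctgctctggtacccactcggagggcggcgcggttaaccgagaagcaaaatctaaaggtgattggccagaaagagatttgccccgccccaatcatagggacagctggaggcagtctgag
Aars: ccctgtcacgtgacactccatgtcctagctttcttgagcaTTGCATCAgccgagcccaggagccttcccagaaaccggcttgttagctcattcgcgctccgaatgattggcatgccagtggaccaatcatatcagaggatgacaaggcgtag

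The capitals mark 1 match in each stretch, with its first base 23, 193 and 112 bases before the start. Chac1, which degrades glutathione, had log2 intensities of 8.67, 8.14, 8.19, 8.16 and 8.47 in the RAS-ON arrays and 8.83 and 8.95 at 72 h, a rise of 0.56 ± 0.13 (SE). Aars, the gene of alanyl-tRNA synthetase, lay at 10.82, 10.83, 10.83, 10.78 and 10.76 in the RAS-ON arrays and 11.25 and 11.32 at 72 h on the log2 scale and rose by 0.48 ± 0.07 (SE). Both genes lay above the RAS-ON range at 72 h. Of 22 list genes with a promoter, 7 held the site: 4 of the 10 called higher, 0 of the 3 called lower and 3 not called. Of all 14452 genes with a promoter, 468 (3.24%) held it. In the 19 immediate early genes with a promoter, the serum response element was searched only as an exact string of 10 bases. This string was present in 4 of all genes (0.0277%) and in 0 of the 19 windows. So rare a string cannot show whether these genes hold other forms of the element. The AP-1 site TGACTCA (771 of all genes, 5.33%) was also found in 0 of the 19 windows. Both counts say only that the letters searched are not there. Chac1 lost its call without 72 h replicate 2 (adjusted p = 0.0502).

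Targets of FOXO factors, which growth signals hold inactive, were higher in 9 of 18 cases and lower in 2. Gadd45a, a growth arrest gene, had log2 intensities of 9.36, 9.22, 9.21, 9.49 and 9.38 in the RAS-ON arrays and 11.27 and 11.16 at 72 h, a rise of 1.89 ± 0.09 (SE). Foxo3, the gene of a FOXO factor itself, lay at 10.44, 10.42, 10.46, 10.30 and 10.30 in the RAS-ON arrays and 11.81 and 11.83 at 72 h on the log2 scale and rose by 1.44 ± 0.10 (SE). Neither gene overlapped between groups. Bcl2l11, the gene of the death-promoting protein BIM, rose by 0.60 ± 0.11 (SE). Pik3ip1, an inhibitor of PI3 kinase, fell by 1.40 ± 0.37 (SE), and Trib1, a pseudokinase gene, by 0.42 ± 0.12 (SE). Without 72 h replicate 1, 5 of the 9 rises were called. Pik3ip1 lost its call without 72 h replicate 1 or 2 (adjusted p = 0.0507 and 0.0875). Trib1 lost its call without 72 h replicate 1 or 2 or when arrays 4 and 5 made up RAS-ON (adjusted p = 0.0609 to 0.1).

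Targets of p53 showed 4 rises and 3 falls among 18, near the shares of all genes, and Mdm2, the best known of them, had a log2 change of -0.12 that was not called. Btg2 rose by 1.16 ± 0.17 (SE), and Pmaip1, the gene of the death-promoting protein NOXA, fell by 0.92 ± 0.16 (SE). Gadd45a, Sesn1 and Fas were the other rises, and Cdkn1a and Bbc3 the other falls. In the BCL2 family, 6 of 14 genes fell and 2, Bcl2l11 and Bcl2l1, rose. Bcl2, which blocks cell death, had log2 intensities of 10.25, 10.34, 10.45, 10.07 and 10.15 in the RAS-ON arrays and 8.81 and 8.72 at 72 h, a fall of 1.49 ± 0.10 (SE). Bak1, which opens the outer membrane of mitochondria, lay at 10.40, 10.28, 10.08, 9.64 and 9.75 in the RAS-ON arrays and 8.69 and 8.73 at 72 h on the log2 scale and fell by 1.32 ± 0.18 (SE). All 72 h values of both were below the RAS-ON values. Bid and Bad, which promote death, fell by 1.14 ± 0.11 and 0.36 ± 0.08 (SE). Bcl2l1, the gene of BCL-XL, rose by 0.59 ± 0.10 (SE). Mcl1, a survival gene of myeloid cells, had a log2 change of -0.10 and was not called. Sesn1 lost its call without 72 h replicate 1, without RAS-ON replicate 1, when arrays 1 to 3 made up RAS-ON or with only the compared groups fitted (adjusted p = 0.0606 to 0.448). Fas lost its call without 72 h replicate 1 or 2 or when arrays 4 and 5 made up RAS-ON (adjusted p = 0.0704 to 0.152). Bbc3 lost its call without 72 h replicate 1 or when arrays 4 and 5 made up RAS-ON (adjusted p = 0.147 and 0.0657). Bcl2l1 lost its call with the mean of probe sets (adjusted p = 0.251). Mcl1 was called when arrays 4 and 5 made up RAS-ON (log2 change -0.33, adjusted p = 0.00793).

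Spleens of mice make red cells, and genes of that line were read as possible markers of cells other than the leukemia. Whether host cells or leukemia cells carried this RNA was not tested. Of 23 erythroid genes, 21 rose and 0 fell, against 13.4% of all genes called higher, and the median log2 change was 1.48. Epb42 had log2 intensities of 8.71, 8.83, 9.37, 8.63 and 8.57 in the RAS-ON arrays and 11.53 and 11.39 at 72 h. Gata1, the master factor of the line, lay at 10.34, 10.10, 10.14, 10.05 and 10.09 in the RAS-ON arrays and 11.74 and 11.83 at 72 h on the log2 scale and rose by 1.64 ± 0.08 (SE). Each 72 h array was above the highest RAS-ON array for both genes. The factor gene Klf1 rose by 1.68 ± 0.19 (SE), the erythropoietin receptor gene Epor by 1.30 ± 0.14 (SE), the heme enzyme gene Alas2 by 1.53 ± 0.13 (SE) and the blood group genes Kel and Rhd by 2.19 ± 0.22 and 1.80 ± 0.09 (SE). Hba-a1 and Hba-a2, near-identical genes of adult alpha-globin, had log2 changes of -0.04 and 0.07 and were not called. Their log2 intensities were 6.04 and 6.51 as RAS-ON means. Probe sets assigned to several symbols were left out, so any assigned to both genes was not used. The level and change of adult alpha-globin are therefore not settled by these values. The count of rises was 21 or 22 under every alternative setting run. Hba-a2 was called when arrays 1 to 3 made up RAS-ON (log2 change 0.27, adjusted p = 0.0371).

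Red pulp macrophages, which clear old red cells from the spleen, were read by 17 genes, of which 11 rose and 1, Sirpa, fell. Spic, the factor that specifies them, had log2 intensities of 8.39, 8.55, 8.71, 8.29 and 9.18 in the RAS-ON arrays and 9.39 and 9.46 at 72 h, a rise of 0.80 ± 0.18 (SE). Slc40a1, the iron exporter ferroportin, rose by 1.02 ± 0.09 (SE), Vcam1 by 1.03 ± 0.15 (SE) and Timd4, a receptor for dying cells, by 1.12 ± 0.11 (SE). Spic was above the RAS-ON range in both arrays. The macrophage gene Adgre1 and the heme-degrading gene Hmox1 had log2 changes of -0.36 and -0.38 and were not called. The mean log2 level of the list was 10.22 at 72 h in both arrays and 9.57 to 9.89 in RAS-ON arrays. The 11 rises became 6 without 72 h replicate 1 and 7 without replicate 2. Sirpa lost its call without 72 h replicate 1 or 2 or when arrays 4 and 5 made up RAS-ON (adjusted p = 0.0504 to 0.148). Adgre1 was called without RAS-ON replicate 5 or when arrays 1 to 3 made up RAS-ON (log2 change -0.46 and -0.54, adjusted p = 0.00294 and 0.00027). Hmox1 was called when arrays 4 and 5 made up RAS-ON (log2 change -0.62, adjusted p = 0.0248).

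Of 13 megakaryocyte and platelet genes, 10 rose and 1, Selp, fell, with a median log2 change of 0.53. Their mean log2 level was 10.49 to 10.67 at 72 h and 9.96 to 10.27 in RAS-ON arrays. Itgb3 and Itga2b, the chains of the platelet fibrinogen receptor, rose by 0.75 ± 0.12 and 0.47 ± 0.09 (SE), and Pf4, a granule chemokine gene of platelets, by 0.53 ± 0.10 (SE). Gp1bb rose by 0.63 ± 0.15 (SE), and 6 rises of the list were called without 72 h replicate 2. The stroma and endothelium list of 24 genes held 12 rises and 4 falls, with mean log2 levels of 9.83 to 9.84 at 72 h and 9.41 to 9.54 in RAS-ON arrays. Cxcl12, a chemokine of stromal cells that retains progenitors, had log2 intensities of 10.06, 9.97, 9.79, 10.10 and 10.03 in the RAS-ON arrays and 11.70 and 11.54 at 72 h, a rise of 1.63 ± 0.11 (SE) with no overlap. Lyve1 and Stab2, genes of sinus endothelium, rose by 1.08 ± 0.17 and 1.19 ± 0.15 (SE), and the stromal receptors Pdgfra and Pdgfrb by 0.98 ± 0.18 and 0.98 ± 0.11 (SE). Stab1, Pecam1, Des and Tagln fell, by 0.92 ± 0.25, 0.82 ± 0.12, 0.65 ± 0.16 and 0.63 ± 0.13 (SE). Gfi1b, Tal1, Nfe2, Mllt3 and Cd36 above are also expressed in erythroid or megakaryocyte cells, and the part of such cells in their rises was not tested. Selp lost its call without 72 h replicate 1 or 2 or with only the compared groups fitted (adjusted p = 0.0802 to 0.136). Itga2b, Gp1bb and Stab1 lost their calls without 72 h replicate 2 (adjusted p = 0.0553, 0.0581 and 0.108). Des lost its call without 72 h replicate 1 or when arrays 4 and 5 made up RAS-ON (adjusted p = 0.103 and 0.0631).

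Lymphoid genes were read in a host strain that lacks most lymphocytes. Mean log2 levels were 7.44 and 7.51 for B-cell genes and 7.05 and 7.21 for T-cell genes at 72 h. Of 11 B-cell genes, 5 fell and 1 rose, with 1 fall called without 72 h replicate 1 and 3 without replicate 2. Cd79b, a subunit of the B-cell receptor, had log2 intensities of 8.74, 8.58, 8.24, 9.10 and 9.04 in the RAS-ON arrays and 7.37 and 7.46 at 72 h, a fall of 1.33 ± 0.18 (SE), while Ms4a1 and Ebf1 had changes of 0.11 and -0.05. Of 11 T-cell genes, 1, Cd3d, rose (3 without 72 h replicate 1), by 1.41 ± 0.16 (SE), and Cd3e and Cd3g, subunits of the same receptor, had log2 changes of -0.03 and -0.09. Cd5 and Thy1 fell by 0.64 ± 0.12 and 0.64 ± 0.18 (SE). Cd22, Pax5, Cd79a and Cd74 were the other B-cell falls, and Fcrla the rise. Thy1 and Fcrla lost their calls without 72 h replicate 1 or 2 or when arrays 4 and 5 made up RAS-ON (adjusted p = 0.0529 to 0.13). Cd22 lost its call without 72 h replicate 1 (adjusted p = 0.0684). Pax5 lost its call without 72 h replicate 1 or with the mean of probe sets (adjusted p = 0.158 and 0.0692). Cd79a lost its call without 72 h replicate 1 or 2, without RAS-ON replicate 1 or with only the compared groups fitted (adjusted p = 0.0514 to 0.202). Cd74 lost its call without 72 h replicate 1 or 2, without RAS-ON replicate 2, 3 or 5, when arrays 4 and 5 made up RAS-ON or with only the compared groups fitted (adjusted p = 0.0639 to 0.252).

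Among 12 natural killer cell genes, Gzma, Ncr1 and Tbx21 rose, by 0.77 ± 0.18, 0.61 ± 0.21 and 0.44 ± 0.11 (SE) log2 units. Nkg7, a granule gene shared with the azurophil list, fell by 0.81 ± 0.22 (SE). Of 13 eosinophil, basophil and mast cell genes, 5 rose and 1 fell. Mcpt8, a basophil protease gene, lay at 9.12, 9.28, 8.92, 10.58 and 10.58 in the RAS-ON arrays and 7.29 and 7.94 at 72 h on the log2 scale and fell by 2.08 ± 0.38 (SE), without overlap. Epx, the gene of eosinophil peroxidase, lay at 9.46, 9.83, 8.88, 11.06 and 10.84 in the RAS-ON arrays and 10.95 and 11.81 at 72 h, so that the groups overlapped. Epx rose by 1.36 ± 0.48 and Prg2 by 1.77 ± 0.48 (SE), and Ccr3, Hdc and Cma1 were the other rises. Of 16 dendritic cell and MHC class II genes, 2 rose and 3 fell, and H2-Aa and H2-Ab1, which present antigen, had log2 changes of 0.03 and -0.10. Ly75 rose by 0.74 ± 0.15 (SE), as did Flt3, and H2-DMa, Ctss and Cd74 fell. Gzma lost its call without 72 h replicate 2 (adjusted p = 0.0552). Ncr1 lost its call without 72 h replicate 1 or 2, without RAS-ON replicate 1, 4 or 5 or when arrays 1 to 3 made up RAS-ON (adjusted p = 0.051 to 0.203). Tbx21 and Prg2 lost their calls without 72 h replicate 1 or 2 (adjusted p = 0.0536 to 0.099). Nkg7, Hdc and Ly75 lost their calls without 72 h replicate 1 (adjusted p = 0.156, 0.0545 and 0.0653). Epx lost its call without 72 h replicate 1 or 2, without RAS-ON replicate 1, 2 or 3, when arrays 4 and 5 made up RAS-ON or with only the compared groups fitted (adjusted p = 0.057 to 0.353). Cma1 lost its call without 72 h replicate 1 or 2, without RAS-ON replicate 1, 3 or 4, when arrays 1 to 3 made up RAS-ON or with only the compared groups fitted (adjusted p = 0.0751 to 0.321).

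**Figure D3:**
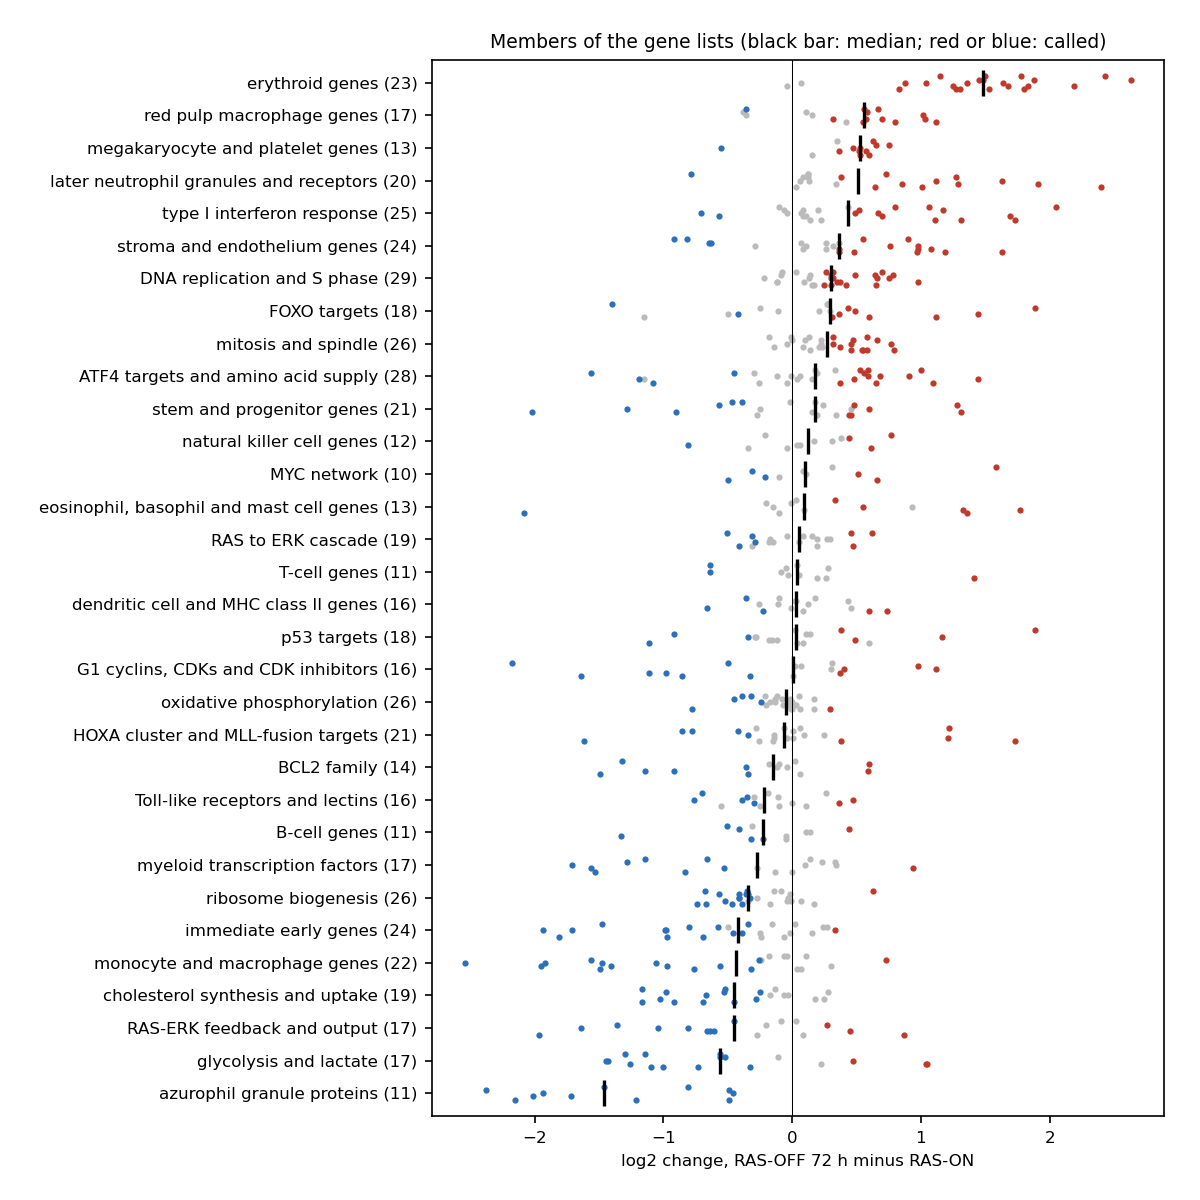
Each point is a measured member of 1 of the 32 gene lists, placed by its log2 change at 72 h against RAS-ON (x axis), red where called higher, blue where called lower and grey where not called. Lists are ordered by their median (black bar), from azurophil granule proteins at -1.46 to erythroid genes at 1.48, with the number measured in brackets.

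The 2 arrays of the 72 h group differed most, among genes brighter than the median gene, in Epx, Saa3, B3galnt2, P2ry10, Eif2a and Map3k12. Epx was 10.95 on replicate 1 and 11.81 on replicate 2 in log2 intensity. The acute phase gene Saa3 was 8.86 and 7.83. The glycosyltransferase gene B3galnt2 was 10.03 and 9.18. For Eif2a, a translation initiation gene, the values were 10.47 and 9.68, and its probe sets disagreed in direction against RAS-ON. Epx is an eosinophil gene and was high on replicate 2, while the other 5 were high on replicate 1. These genes were picked for that difference, which is a description.

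The position of 72 h among the RAS-OFF times was read by contrasts that use no RAS-ON array. Against the mean of 48 and 60 h (4 arrays), 0 genes were called in limma. The lowest adjusted p was 0.0699, shared by 28 genes, and 1592 genes (8.75%) had an unadjusted p below 0.05. Below an adjusted p of 0.1 were 47 genes higher and 70 lower at 72 h. The 8 of the 28 genes given here were chosen after their values were seen.

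Among the genes at that adjusted p, the interferon-linked Xaf1, Slfn5, Ifi209 and Psmb8 were lower at 72 h than at 48 and 60 h, by 0.77 ± 0.12, 0.92 ± 0.15, 0.92 ± 0.16 and 0.46 ± 0.07 (SE) on the log2 scale. At 48, 60, 72, 84 and 96 h in turn, the replicate pairs of Xaf1, a gene of cell death, lay at 10.09 and 10.09, 9.98 and 9.53, 9.09 and 9.21, 9.40 and 9.45, and 9.19 and 9.44 in log2 intensity. Psmb8, a subunit of the immunoproteasome, lay at 11.55 and 11.64, 11.52 and 11.41, 11.06 and 11.08, 10.94 and 11.03, and 11.00 and 10.90 in the same order. Both genes had their highest values at 48 and 60 h. Cth, which makes cysteine, was 1.30 ± 0.23 (SE) lower than at the earlier times. The DNA repair gene Brca2, the checkpoint gene Clspn and the cell cycle factor gene E2f7 were higher, by 0.42 ± 0.07, 0.49 ± 0.08 and 0.48 ± 0.08 (SE). Brca2 lay at 9.89 and 9.90, 9.69 and 9.64, 10.19 and 10.21, 10.40 and 10.44, and 10.38 and 10.45 in that order, low at 48 and 60 h. None of these differences passed the threshold.

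The gene lists were placed in the same way. The median log2 difference from 48 and 60 h was -0.43 for interferon genes, -0.34 for dendritic cell and MHC class II genes, -0.31 for myeloid transcription factors, 0.21 for replication and 0.30 for mitosis genes, against -0.013 for all genes. No member of any list was called in that contrast. The median change against RAS-ON of the mitosis list ran 0.04, -0.04, 0.27, 0.39 and 0.31 over the 5 times. That of the interferon list ran 0.95, 0.65, 0.43, 0.63 and 0.48. The erythroid list stayed between 1.27 and 1.53, and the azurophil list between -1.25 and -1.71. All of these share the RAS-ON arrays.

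**Figure D4:**
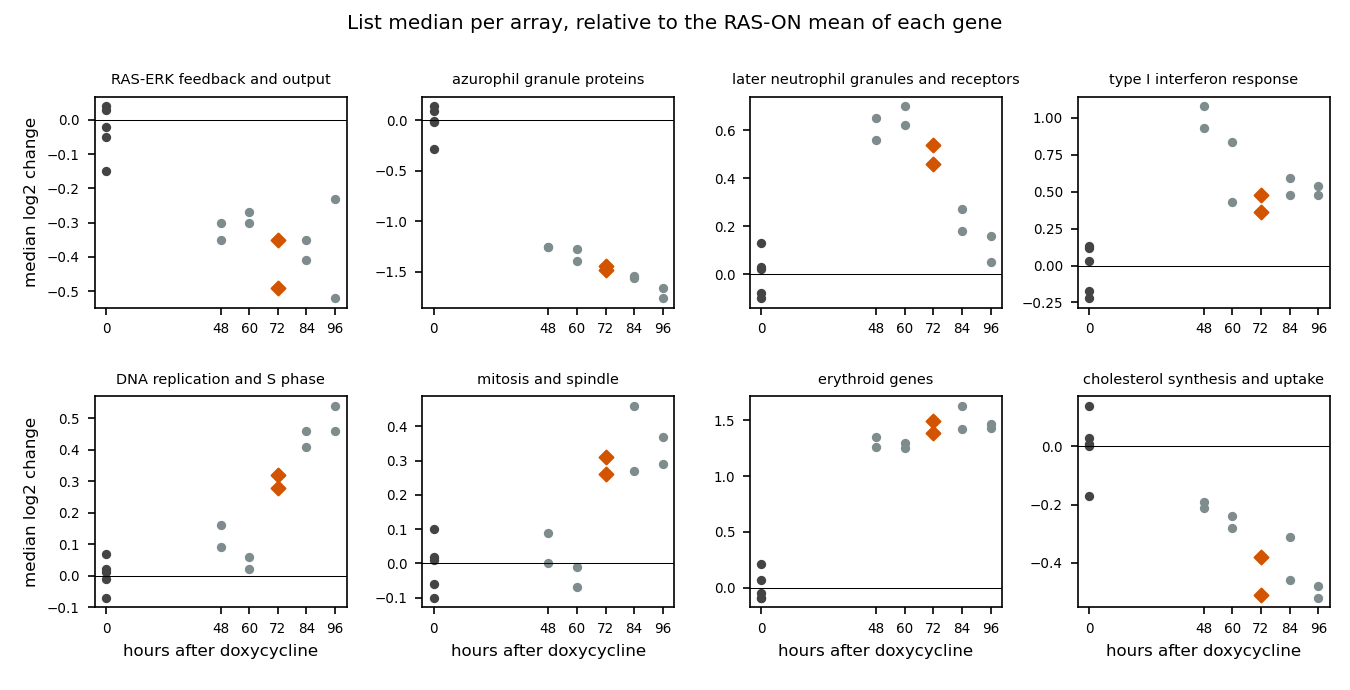
Median log2 change of 8 gene lists in each array (y axis), relative to each gene's RAS-ON mean, against hours after doxycycline (x axis, RAS-ON at 0); orange diamonds are the 72 h arrays. Replication and mitosis genes lie higher from 72 h on than at 48 and 60 h, and erythroid genes are high at every time.

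Against the mean of 84 and 96 h (4 arrays), 15 genes (0.0824%) were called, 13 higher (0.0715%) and 2 lower (0.011%) at 72 h. Asprv1, a protease gene best known from skin, had replicate pairs of 9.38 and 9.57, 9.12 and 9.32, 9.48 and 9.77, 8.51 and 8.39, and 8.35 and 8.15 in log2 intensity from 48 to 96 h. Its RAS-ON values were 7.74, 8.07, 7.93, 8.11 and 8.21. The difference from the later times was 1.27 ± 0.13 (SE; adjusted p = 0.0016, limma), and it was not called without 72 h replicate 2 (adjusted p = 0.0833). Asprv1 was high up to 72 h and closer to the RAS-ON values after. Stfa2l1, a stefin protease inhibitor gene of neutrophils, lay at 10.31 and 10.77, 10.54 and 10.40, 11.19 and 11.09, 9.89 and 9.31, and 9.82 and 9.48 in the same order. Stfa2l1 at 72 h was 1.51 ± 0.25 (SE) above 84 and 96 h, and its difference from 48 and 60 h, 0.63 ± 0.25 (SE), was not called (adjusted p = 0.408, limma).

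Emb, an adhesion gene, was 12.50, 12.62, 12.69, 12.54 and 12.55 in RAS-ON arrays and 10.72 and 10.84 at 72 h in log2 intensity, then 10.40 and 10.25 at 84 h and 10.04 and 10.01 at 96 h. The 72 h level was 0.61 ± 0.08 (SE) above the later ones. Ppp1r42 was higher at 72 h by 0.76 ± 0.12 (SE), the muscle myosin gene Myl2 by 0.67 ± 0.11 (SE) and Xdh, the gene of xanthine dehydrogenase, by 0.59 ± 0.10 (SE). The other 7 higher genes, named after their values were seen, were Cyp4f18, Ncf1, Ncf4, Capg, Anxa2, Fcgr3 and Antxr2. Ncf1 and Ncf4, subunits of the oxidase by which phagocytes kill microbes, were 0.51 ± 0.09 and 0.51 ± 0.07 (SE) higher, and Fcgr3, an antibody receptor gene, 0.48 ± 0.08 (SE). Of the 2 lower genes, Tac2, which encodes a tachykinin, lay at 9.25 and 9.32 at 72 h and 10.24 and 10.39 at 84 h in log2 intensity, a difference of -0.93 ± 0.15 (SE) from the later times. Scd1, a desaturase that makes unsaturated fatty acids, lay at 8.24 and 8.24 at 72 h and 9.18 and 9.15 at 84 h, a difference of -0.64 ± 0.10 (SE). RAS-ON arrays were lower still for both genes.

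The 15 calls rested on few arrays: 1 gene was called higher and 0 lower without 72 h replicate 1, and 0 and 0 without replicate 2. Without 84 h replicate 1 the calls were 2 and 0, and without 96 h replicate 1, whose Gapdh difference of 1.222 stood apart, 4 and 0. Without 84 h replicate 2 they were 7 and 37. List medians against 84 and 96 h were 0.43 for later neutrophil genes, 0.29 for azurophil granule genes, 0.23 for monocyte genes, 0.21 for glycolysis genes, -0.15 for replication genes and -0.23 for interferon genes, against -0.007 for all genes. Fcgr3 was the 1 list gene called. With 0 calls against 48 and 60 h, no gene could be called in both contrasts. Whether any gene at 72 h differs from both the earlier and the later times was therefore not settled.

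**Figure D5:**
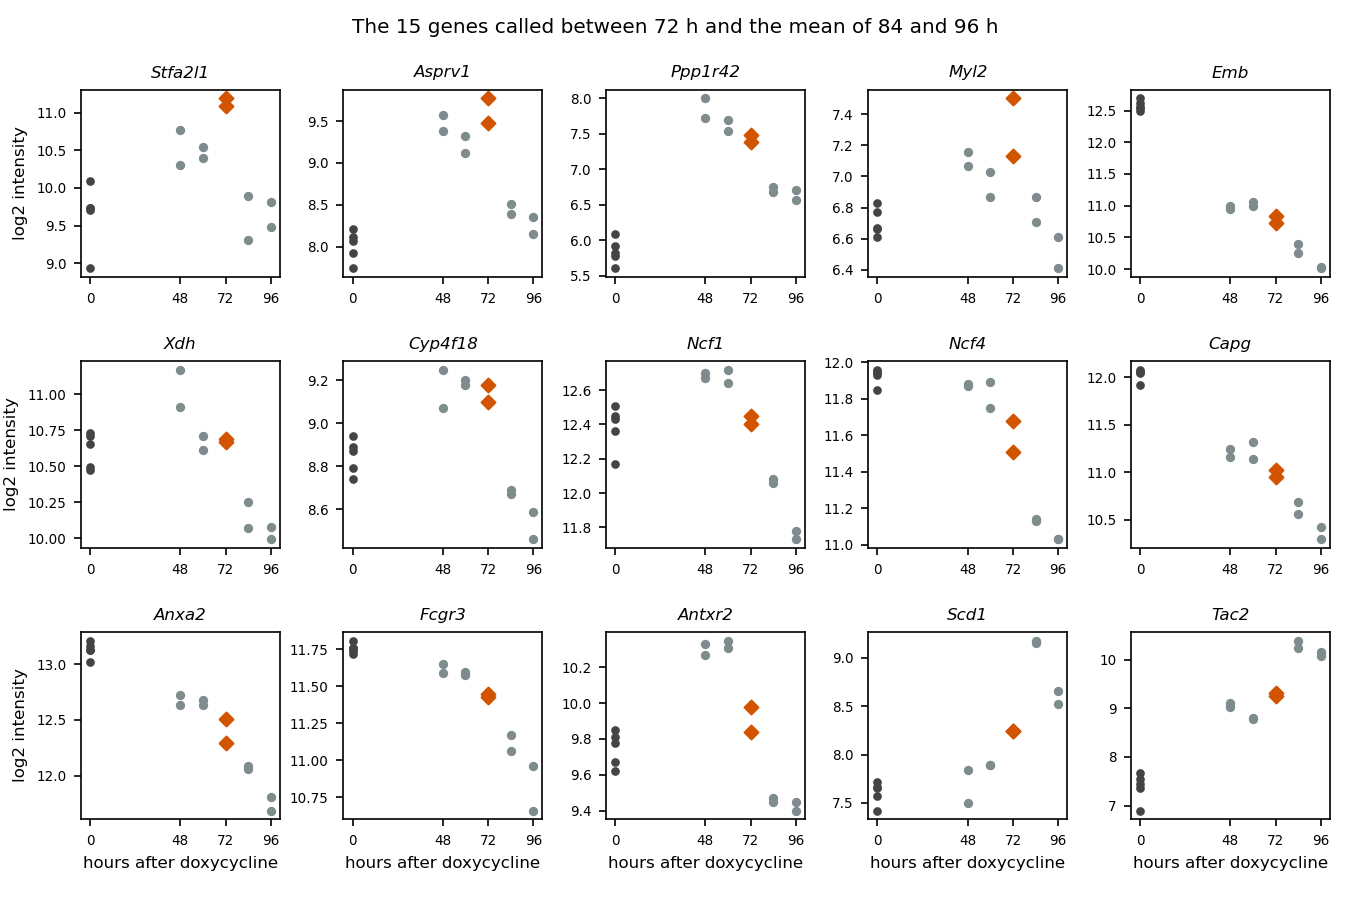
Log2 intensity (y axis) of the 15 genes called between 72 h and the mean of 84 and 96 h, in every array, against hours after doxycycline (x axis, RAS-ON at 0); orange diamonds are the 72 h arrays. The 13 genes higher at 72 h lie above their 84 and 96 h values, and Tac2 and Scd1 lie below them.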

How the data were processed

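Total RNA was amplified with a MessageAmp III kit, labelled with biotin and hybridised to arrays, per the labels' protocols, and the probe sets are those of an Affymetrix mouse array. The authors deposited linear intensities, 1 for each probe set on each array, which RMA produced per the submitters' processing notes (no version or settings are named). Since RMA aligns the distributions of arrays, a shift of most genes one way would not be visible. Log2 was taken before any test.

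Of 45101 probe sets, 34945 had 1 gene symbol, 932 several, 9160 none and 64 were controls. Of those with 1 symbol, 34741 matched a RefSeq gene identifier (GRCm38.p6). Each of 18193 genes was represented by the brightest of its probe sets on average across the 15 arrays, with no filter on dim genes and 0 value columns unused. Groups came from the sample titles.

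limma 3.58.1 in R 4.3.3 fitted 1 mean for each of 6 time groups with a shared spread (eBayes, two-sided), and p-values were adjusted by Benjamini-Hochberg across the 18193 genes (called: adjusted p below 0.05). The contrasts were 72 h minus RAS-ON, minus the mean of 48 and 60 h, and minus the mean of 84 and 96 h. The median SE was 0.1 log2 units in each. Precision is limited by how few arrays each group has. Of 641 genes in 32 lists, 583 were measured. On simulated data, 70% of genes changed by 0.5 log2 units and 96% changed by 1 were recovered for 72 h against RAS-ON, with 5 other genes called. The shares were 64% and 95% (3 others) against 48 and 60 h and 56% and 92% (5 others) against 84 and 96 h. The simulated arrays had independent normal noise, and 100 genes were changed by each amount. In the measured arrays 31.8% of genes were called against RAS-ON, and RAS-ON arrays fell into sets. The shares therefore do not give the recovery or error of the real comparisons.

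Named were 10 fixed genes, the 12 largest rises and 12 largest falls called without overlap, up to 4 called members per list, the 6 largest called differences each way from the other times, and the 6 genes above the median level that differed most between the 72 h arrays. Provisional symbols were passed over outside lists, and 20 further genes and the other list members given were added after values were seen. The members and lists were chosen with earlier results of these data known. Replicate numbers of the titles were not used to pair the samples in the main fit. The alternatives tried were a filter on the dimmest 40% of genes, the mean of probe sets, centring on array medians, and trend and robust settings. Further ones were array weights, a replicate block, each array left out, and only the groups compared. Others left out the first replicates of 48, 84 and 96 h or used RAS-ON arrays 1 to 3 or 4 and 5 only. The last were all probe sets tested separately and a minimum change of 1 log2 unit. Lost and gained calls of single genes are given above for only some alternatives. These are the mean of probe sets, each array left out, only the groups compared, and RAS-ON arrays 1 to 3 or 4 and 5 only. Other alternatives cost further calls, such as Sos1 and Epx with trend and robust settings. Tlr4, Tlr13, Ncr1 and Tbx21 also lost theirs with the replicate block. Replicates at 48, 84 and 96 h differed with SDs of 0.185, 0.244 and 0.212, those at 60 and 72 h with 0.15 and 0.156. A pair alone cannot show which of its arrays stands apart. Where an alternative left 1 array in a group, it was assumed to vary like the others.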

Additional observations from a re-analysis of the deposited data

Results flagged for a closer look

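Among the 5 RAS-ON arrays, 4 of the 178 named genes had 1 array far from the rest by Dixon's criterion. Chance meets it in about 1 of 20 groups, and 4 of 178 is below that rate. Mmp8 was 10.63 on the log2 scale in RAS-ON replicate 2 and 10.19 to 10.25 in the others. Prtn3 was 13.22 in replicate 3 against 13.53 to 13.60, and Phgdh was 10.88 in replicate 3 against 11.29 to 11.39. Slc40a1 was 10.85 in replicate 1 against 11.11 to 11.18. In all 4 genes both 72 h arrays lay outside the RAS-ON range with that array included.

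The difference between 72 h and the mean of 84 and 96 h passed limma's test for 8 genes named by the rule. It was 1.51 for Stfa2l1, 1.27 for Asprv1, 0.76 for Ppp1r42, 0.67 for Myl2, 0.61 for Emb and 0.59 for Xdh, all higher at 72 h on the log2 scale. It was -0.93 for Tac2 and -0.64 for Scd1.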

How the results depend on the processing

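Of 157 named genes called at 72 h against RAS-ON and counted here, 130 were called in each of the 17 or 18 alternatives that tested them. Of the 157, 0 changed direction. Of 8 counted genes not called, 4 were called in at least 1 alternative. The minimum change was not among these alternatives. Left out of the count were genes named only for differing between the 72 h arrays and the 8 given for 48 and 60 h. Over all genes, the mean of probe sets reversed the sign of 46 of 2442 higher and 30 of 3337 lower calls. It kept 2029 and 2894 of them as calls. Genes called higher and lower were 5227 and 5685 with all probe sets tested separately, 480 and 283 with a minimum change of 1 log2 unit, 2629 and 2976 with arrays centred on their medians, and 1601 to 2496 and 1835 to 3523 with single arrays left out. The replicate block gave 2581 and 3658. Deviations of same-numbered samples had correlations of both signs (-0.231 to 0.217), which do not settle whether the numbers pair the samples. Against 48 and 60 h (0 higher, 0 lower), the counts were 3 and 2 with the mean of probe sets, 182 and 218 with array weights, 11 and 13 with the replicate block, 35 and 71 with only the groups compared, and 0 to 1 and 0 to 3 with single arrays left out. Against 84 and 96 h (13 higher, 2 lower), they were 7 and 1 with centring, 179 and 23 with array weights, 84 and 3 with the replicate block, 2 and 1 without 3 arrays that stood apart, 1 and 0 with all probe sets, 2 and 0 with the minimum change, and 0 to 13 and 0 to 37 with single arrays left out. Trend and robust settings gave 20 higher there, and the mean of probe sets 1 lower. Genes near 0 changed sign: Kmt2a (-0.02 with array weights, -0.07 with the block, -0.16 with RAS-ON arrays 1 to 3, and -0.16 to 0.17 with single arrays left out), Meis1 (-0.06, -0.21, -0.25, and -0.15 to 0.16), Hoxa9 (0.00 with the block) and Itgam (-0.07 with RAS-ON arrays 1 to 3, and -0.18 to 0.30). Of 544 list medians, 21 in 8 lists changed sign. The causes were not tested. Dim genes near the array background are read with the least precision.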
